A study of Arabidopsis thaliana with 2 samples.

Results

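The auxin synthesis, transport and response genes described here are 140 of the 27444 protein-coding genes on chromosomes 1 to 5 of Arabidopsis thaliana. They were chosen by name alone: a gene belongs if its symbol or a synonym is YUC, PIN, GH3., IAA or SAUR followed by digits. The families hold 11 YUC, 8 PIN, 9 GH3, 32 IAA and 80 SAUR genes, and 77 of the 140 were found through a synonym. The auxin response factors MP, NPH4 and ARF19 enter through older IAA names. SAUR21 and SAUR68 are each carried by a pair of loci, and PBS3 (GH3.12) is best known for salicylic acid synthesis. The SAUR21 locus AT5G01830 is 2865 bp long, against a SAUR median of 815 bp. It is kept by name, and whether it is a SAUR gene was not checked.

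The assay, sequential DNA affinity purification sequencing, lets protein complexes prepared outside the plant select fragments of naked genomic DNA, which are then sequenced. The complexes were SEP3Δtet3M-AG and SEP3Δtet-AGΔtet, forms of the SEPALLATA3 (SEP3) and AGAMOUS (AG) heterotetramer altered in tetramer formation, with 1 library each. The DNA of both came from untreated seedlings aged 2 weeks. The genotype label is the same for both samples, so the complexes were told apart by sample title, and the meaning of 3M is not given in the labels. The unaltered SEP3-AG complex was not analysed here. Because the DNA is free of chromatin and the proteins are supplied, a peak is a stretch bound in the tube and says nothing of binding or expression in seedlings.

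Auxin is a small growth hormone made from tryptophan, with YUC flavin monooxygenases catalysing the last step of the main route. PIN proteins carry it out of cells and so set its direction of flow, and many GH3 enzymes join it to amino acids. Aux/IAA proteins hold auxin response factors in check until auxin triggers their breakdown, and SAUR genes are rapidly induced targets, many of which promote cell expansion. Flower primordia arise where auxin accumulates, and the MADS-domain factors SEP3 and AG then specify the inner floral organs.

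Each list holds peak positions only, 1681 for SEP3Δtet3M-AG and 2277 for SEP3Δtet-AGΔtet, every peak being 400 bp wide. A peak was assigned to every gene that held its midpoint or ended within 3000 bp of it, on whichever side, since the gene table used has no strand. No score or read depth accompanies the peaks, so a peak is present or absent. With 1 list per complex no difference between the complexes could be tested. Intervals are exact 95% Clopper-Pearson intervals and cover the counting of genes or peaks only. The genome build of the lists is not given in the sources used here. As a check of the fit to this table, midpoints falling within protein-coding genes were counted. They made up 52.2% for SEP3Δtet3M-AG, and 57.6 to 60.6% once all peaks were moved together by 5000 to 20000 bp. For SEP3Δtet-AGΔtet they made up 46.7%, and 59.8 to 61.4% once moved.

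Of the 140 auxin genes, 15 had a SEP3Δtet3M-AG peak and 30 had a SEP3Δtet-AGΔtet peak. The share with SEP3Δtet3M-AG was 10.7% (interval 6.12 to 17.1), against 12% of the 27304 other protein-coding genes. With SEP3Δtet-AGΔtet it was 21.4% (interval 14.95 to 29.2), against 15.8% of other genes. Both intervals hold the share of other genes at this limit of 3000 bp. For SEP3Δtet-AGΔtet this changed with the rule: the interval lay above the share of other genes with a flank of 5000 bp (31.4%, interval 23.85 to 39.8, against 22.5%). It did so too when a peak counted only for its nearest gene (12.9%, interval 7.80 to 19.6, against 7.45%). These intervals take genes as independent, which neighbouring genes with a peak in common are not. The SEP3Δtet3M-AG list had a peak at 3290 other genes and the SEP3Δtet-AGΔtet list at 4308.

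**Figure D1:**
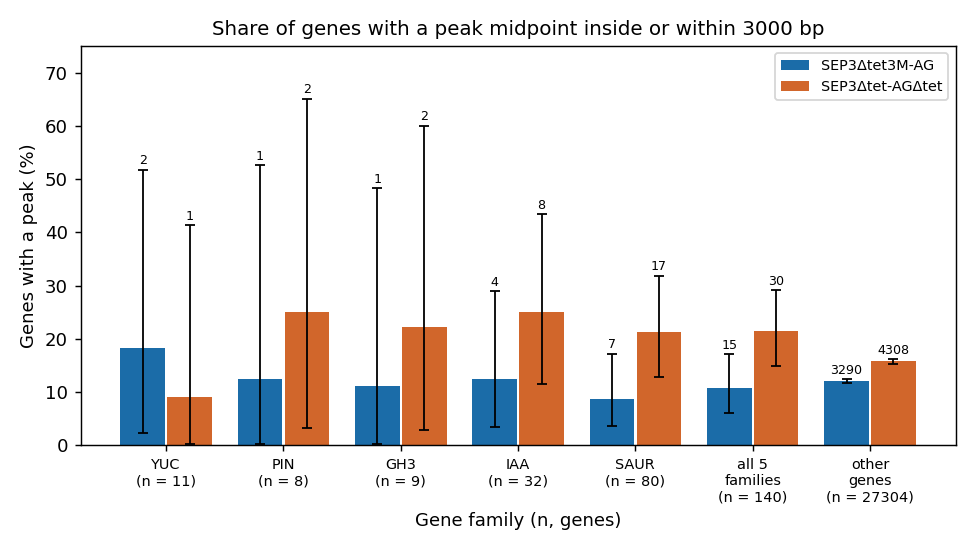
Percentage of genes with a peak midpoint inside or within 3000 bp (y axis) for each auxin gene family, all 5 families and other protein-coding genes (x axis), with SEP3Δtet3M-AG on the left of each pair. Bars give the share, error bars the exact 95% interval and the numbers above them the genes with a peak; the 15 and 30 auxin genes have intervals that include the 12% and 15.8% of other genes.

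The distance from each gene to the nearest midpoint needs no limit. With SEP3Δtet3M-AG the median was 23668 bp over the auxin genes and 21360 bp over other genes. With SEP3Δtet-AGΔtet it was 10932 bp and 15698 bp. Neighbouring genes can have the same nearest midpoint, and each counts in these medians. Auxin genes are short, with a median length of 1104 bp against 2080 bp for other genes, and each brings a shorter stretch of DNA to the count. Per Mb of gene plus flanks, the auxin genes had 14.2 gene-peak pairs with SEP3Δtet3M-AG, against 15.3 for other genes. With SEP3Δtet-AGΔtet they had 28.3, against 20.7.

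**Figure D2:**
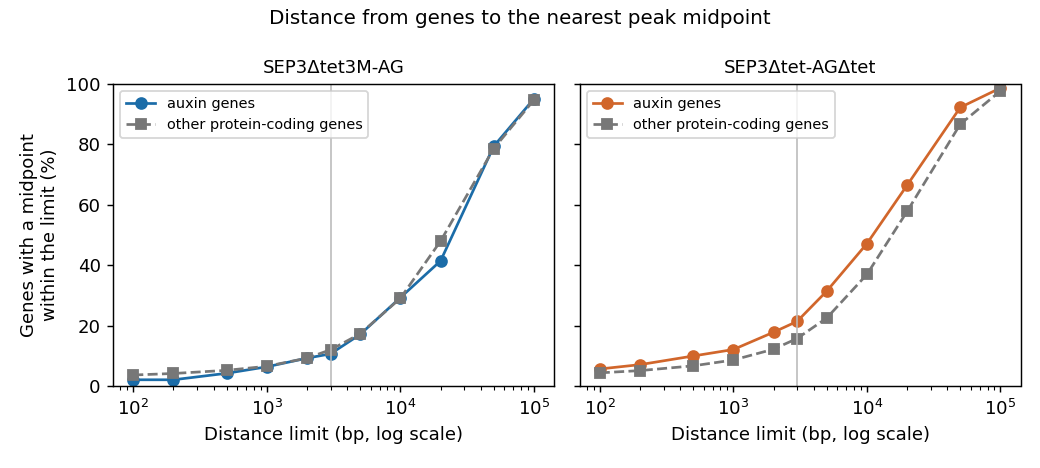
Cumulative percentage of genes (y axis) that have a peak midpoint within a given distance (x axis, bp, log scale) for SEP3Δtet3M-AG on the left and SEP3Δtet-AGΔtet on the right. Solid lines are the 140 auxin genes, dashed lines the other protein-coding genes, and the vertical line marks 3000 bp. At 3000 bp the auxin genes stand at 10.7% and 21.4%, against 12% and 15.8% of other genes. Neighbouring genes with the same nearest midpoint count separately.

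A peak in both lists was found at 11 auxin genes (7.86%, interval 3.99 to 13.6), against 8.66% of other genes. They are YUC2, GH3.4, IAA9, IAA20, IAA34, NPH4, SAUR10, SAUR18, SAUR30, SAUR42 and SAUR51. YUC3, PIN2, SAUR25 and SAUR40 made 4 genes with a peak of SEP3Δtet3M-AG only (2.86%, interval 0.784 to 7.15, against 3.39% of other genes). A further 19 had one with SEP3Δtet-AGΔtet only (13.6%, interval 8.37 to 20.4, against 7.12% of other genes), an interval that lies above the share of other genes. They rest on 15 peaks, since 6 of the 19 are neighbouring SAUR genes that share 2 peaks. With neighbouring auxin genes taken as 1 locus, 15 of 113 loci had a peak with SEP3Δtet-AGΔtet only (13.3%, interval 7.62 to 20.95). Other genes are not merged into loci here, so this share has no like share beside it. These are some of many intervals, for genes and limits chosen with earlier results known. Among these 19 are PIN3, GH3.2, IAA5, IAA15, IAA27, IAA31 and 12 SAUR genes: SAUR1, SAUR2, SAUR3, SAUR4, SAUR6, SAUR7, SAUR8, SAUR9, SAUR19, SAUR31, SAUR53 and SAUR77. Of the 23 auxin genes with a peak in 1 list only, 82.6% fell to SEP3Δtet-AGΔtet (interval 61.2 to 95.05), an interval that holds the 67.7% of other such genes. The remaining 106 auxin genes had no peak in either list.

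Genes with a peak in both lists were 73.3% of the auxin genes with a SEP3Δtet3M-AG peak and 36.7% of those with a SEP3Δtet-AGΔtet peak. For other genes these shares were 71.85% and 54.9%. No interval was computed for these shares of genes, and neighbouring SAUR genes that share a peak count separately in them. Counted by peak, 10 of 15 SEP3Δtet3M-AG peaks at auxin genes overlapped a peak of the other list (66.7%, interval 38.4 to 88.2), against 67.65% of its other peaks. In the SEP3Δtet-AGΔtet list 10 of 26 did (38.5%, interval 20.2 to 59.4), against 49.8% of its other peaks. Both intervals hold the share of the other peaks. These 10 overlapping pairs had midpoints 1 to 207 bp apart, with a median of 7 bp, and 9 of them lay within 21 bp.

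**Figure D3:**
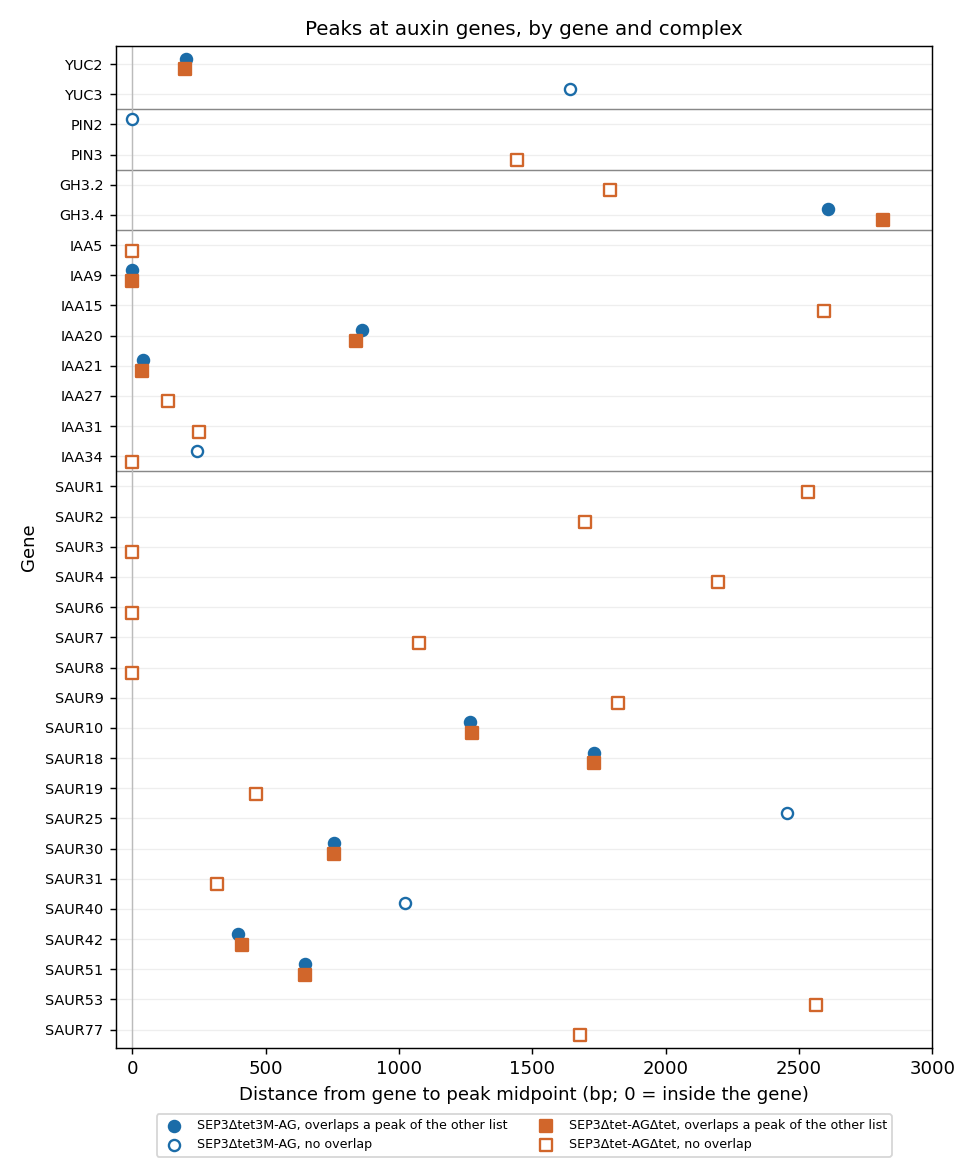
Distance in bp from the auxin genes with a peak that are named in the text (y axis, grouped by family; NPH4 stands under its name IAA21) to the peak midpoints in its reach (x axis; 0 is inside the gene). Circles are SEP3Δtet3M-AG and squares SEP3Δtet-AGΔtet, filled where the peak overlaps one of the other list; filled pairs nearly coincide at YUC2, IAA9, IAA20, NPH4 and 5 SAUR genes.

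Among the auxin synthesis genes, YUC2 had a peak of each complex at the same place. The SEP3Δtet3M-AG peak (chromosome 4, 7724074 to 7724473) lay 203 bp from the gene and the SEP3Δtet-AGΔtet peak (7724070 to 7724469) 199 bp from it. Their midpoints were 4 bp apart, and no other protein-coding gene was in reach. YUC3 had a SEP3Δtet3M-AG peak 1640 bp away, nearer to HCAR than to YUC3, and its nearest SEP3Δtet-AGΔtet midpoint was 21337 bp away. Of 11 YUC genes, 2 thus had a SEP3Δtet3M-AG peak (18.2%, interval 2.28 to 51.8) and 1 a SEP3Δtet-AGΔtet peak (9.09%, interval 0.23 to 41.3). Those intervals hold the 12% and 15.8% of other genes. No peak was in reach of the other 9 YUC genes. They include YUC1 and YUC4, which act together in flower development. YUC4 had its nearest midpoints 5829 bp (SEP3Δtet3M-AG) and 5818 bp (SEP3Δtet-AGΔtet) away, and YUC1 105399 bp and 86921 bp.

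No PIN efflux carrier gene had a peak in both lists, against 8.66% of other genes. With 8 genes and no interval computed, this count cannot be read as a difference. PIN2 (EIR1), which directs the root's response to gravity, had a SEP3Δtet3M-AG peak inside the gene (chromosome 5, 23103694 to 23104093). The nearest SEP3Δtet-AGΔtet midpoint to that gene was 61454 bp away. PIN3, which redistributes auxin sideways in bending organs, had a SEP3Δtet-AGΔtet peak 1441 bp away and was the nearest gene to it. The nearest SEP3Δtet3M-AG midpoint to PIN3 was 20744 bp away. With 8 genes, the intervals were wide, from 0.316 to 52.65% with SEP3Δtet3M-AG and from 3.19 to 65.1% with SEP3Δtet-AGΔtet. They hold the 12% and 15.8% of other genes.

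Peaks at the GH3 genes all lay more than 1000 bp from the gene. GH3.4 had a peak of each complex, 2609 bp away with SEP3Δtet3M-AG and 2816 bp away with SEP3Δtet-AGΔtet. These peaks overlapped by 193 bp with midpoints 207 bp apart, the widest gap among the overlapping pairs at auxin genes, and CF9 was the gene nearest to both. GH3.2 had a SEP3Δtet-AGΔtet peak 1792 bp away, nearer to CYP81F3, a cytochrome P450 gene. Its nearest SEP3Δtet3M-AG midpoint lay 5030 bp from the gene. The other 7 GH3 genes, among them GH3.3, GH3.5 and GH3.6, which encode auxin-conjugating enzymes, had no peak in reach. Of 9 GH3 genes, 1 thus had a SEP3Δtet3M-AG peak (11.1%, interval 0.281 to 48.25) and 2 a SEP3Δtet-AGΔtet peak (22.2%, interval 2.81 to 60.0). Those intervals hold the 12% and 15.8% of other genes.

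Aux/IAA genes and the response factors listed with them had 4 of 32 members with a SEP3Δtet3M-AG peak (12.5%, interval 3.51 to 29.0). With SEP3Δtet-AGΔtet they had 8 (25%, interval 11.5 to 43.4). The intervals hold the 12% and 15.8% of other genes. All 4 of the first group also had a SEP3Δtet-AGΔtet peak, as did 71.85% of the other genes with a SEP3Δtet3M-AG peak. No interval was computed for this share of 4 genes. IAA9, an Aux/IAA repressor with roles in leaf and vascular development, had both peaks inside the gene and no other gene in reach. Its SEP3Δtet3M-AG peak lay at chromosome 5, 26253701 to 26254100, and its SEP3Δtet-AGΔtet peak at 26253715 to 26254114, 14 bp apart at the midpoints.

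NPH4, also known as ARF7, is an activating response factor of tropic growth and lateral root formation. Its SEP3Δtet3M-AG peak (chromosome 5, 7016205 to 7016604) lay 41 bp from the gene and its SEP3Δtet-AGΔtet peak (7016210 to 7016609) 36 bp from it. The gene nearest to both was CPN20, which encodes a chloroplast co-chaperonin. IAA20, an Aux/IAA protein without the usual auxin-dependent degron, had peaks 860 bp (SEP3Δtet3M-AG; chromosome 2, 19309732 to 19310131) and 839 bp (SEP3Δtet-AGΔtet; 19309711 to 19310110) away. Both lay inside the neighbouring auxin transporter gene ABCB4.

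IAA34 had a peak of each complex, but these did not overlap. The SEP3Δtet3M-AG peak (chromosome 1, 5181550 to 5181949) lay 242 bp outside the gene and the SEP3Δtet-AGΔtet peak (5182358 to 5182757) inside it, with midpoints 808 bp apart. IAA34 was the nearest gene to both.

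The other 4 IAA genes with a peak had it with SEP3Δtet-AGΔtet only (12.5% of the 32, against 7.12% of other genes). No interval was computed for this share. That of IAA5, an early auxin-induced repressor, lay inside the gene (chromosome 1, 5365893 to 5366292), where the nearest SEP3Δtet3M-AG midpoint was 32064 bp away. IAA27 had its peak 135 bp away (chromosome 4, 14325297 to 14325696) and IAA31 250 bp away (chromosome 3, 6021198 to 6021597). At IAA15 it was 2593 bp away, with AT1G80400 nearer. For IAA27 and IAA31 the nearest SEP3Δtet3M-AG midpoints were 11167 and 7768 bp from the gene. The remaining 24 members, including IAA3 (SHY2), IAA14, IAA17 (AXR3) and MP, had no peak in reach (75%, against 80.8% of other genes).

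SAUR genes are the largest of the families, with 80 of the 140 members. Their share with a SEP3Δtet-AGΔtet peak was close to the 21.4% of all auxin genes. Of 80, 7 had a SEP3Δtet3M-AG peak (8.75%, interval 3.59 to 17.2) and 17 a SEP3Δtet-AGΔtet peak (21.2%, interval 12.9 to 31.8), against 12% and 15.8% of other genes. Each interval holds its background share. The nearest midpoint lay at a median of 26674 bp with SEP3Δtet3M-AG and 9504 bp with SEP3Δtet-AGΔtet. None of the 7 SEP3Δtet3M-AG peaks at SAUR genes lay inside the gene (0% of the 80, against 3.18% of other genes). A SEP3Δtet-AGΔtet peak lay inside 3 SAUR genes, SAUR3, SAUR6 and SAUR8 (3.75% of the 80, against 3.79% of other genes).

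At 5 SAUR genes there were peaks of both complexes (6.25% of the 80, against 8.66% of other genes), and at each of the 5 these overlapped. SAUR51 had them 648 bp (SEP3Δtet3M-AG; chromosome 1, 28378759 to 28379158) and 647 bp (SEP3Δtet-AGΔtet; 28378758 to 28379157) away, with no other gene in reach. SAUR42 had them 397 bp (chromosome 2, 11968910 to 11969309) and 410 bp (11968923 to 11969322) away, likewise as the only gene in reach. At these genes the peaks of the complexes were 1 and 13 bp apart. SAUR10, a growth-promoting gene that the MADS-domain protein FRUITFULL is known to repress, had peaks 1265 bp (SEP3Δtet3M-AG) and 1274 bp (SEP3Δtet-AGΔtet) away and was the nearest gene. SAUR30 had peaks 755 bp (chromosome 5, 21773350 to 21773749) and 757 bp (21773352 to 21773751) away, with AT5G53592 nearer. SAUR18 had them 1733 and 1732 bp away, with AT3G51210 nearer.

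The other SAUR genes with a peak had it in 1 list only, and 61 of the 80 had none (76.2%, against 80.8% of other genes). A peak with SEP3Δtet3M-AG only was found at 2.5% of the 80, against 3.39% of other genes. With SEP3Δtet-AGΔtet only it was 15%, against 7.12%, where neighbouring SAUR genes that share a peak count separately. No interval was computed for these shares. With SEP3Δtet3M-AG only, SAUR40 had a peak 1022 bp away and SAUR25 one 2455 bp away, each nearer to another gene (AT1G79150 and AT4G13780). With SEP3Δtet-AGΔtet only, SAUR8 had a peak inside the gene (chromosome 2, 7185878 to 7186277). SAUR31 had one 317 bp away (chromosome 4, 367392 to 367791). SAUR19, which drives cell expansion by inhibiting a phosphatase of the plasma membrane proton pump, had one 464 bp away (chromosome 5, 5962110 to 5962509). These 3 genes were each the nearest to their peak. SAUR9 and SAUR53 were also nearest to theirs, 1822 and 2564 bp away, while AT1G17340 was nearer to the peak 1679 bp from SAUR77.

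Many SAUR genes stand side by side in the genome, so that 1 peak can be in reach of several. There were 23 pairs of SAUR genes with no other protein-coding gene between them. None of these pairs shared a SEP3Δtet3M-AG peak (0%, interval up to 14.8), and 4 shared a SEP3Δtet-AGΔtet peak (17.4%, interval 4.95 to 38.8). Among all other neighbouring protein-coding pairs, 6.84% and 8.98% shared one. Of the pairs with any SEP3Δtet-AGΔtet peak in reach, 44.4% of SAUR pairs (4 of 9) and 40.9% of other pairs shared one. The SAUR pairs stood a median of 756 bp apart and the other pairs 664 bp.

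The 4 sharing pairs came from 2 peaks. A SEP3Δtet-AGΔtet peak at chromosome 4, 16594246 to 16594645, had its midpoint inside SAUR3 and was also counted for SAUR2 (1698 bp), SAUR4 (2195 bp) and SAUR1 (2535 bp). In the same run of 7 neighbouring SAUR genes, SAUR5 lay 4513 bp from the midpoint, SAUR50 11370 bp and SAUR49 15993 bp, all out of reach. The other peak, at chromosome 2, 9085679 to 9086078, had its midpoint inside SAUR6 and lay 1075 bp from SAUR7, which overlaps SAUR6 in the gene table. The third gene of that run, SAUR12, was 3348 bp away. Neither peak overlapped a SEP3Δtet3M-AG peak, whose nearest midpoints were 30612 and 30451 bp away.

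**Figure D4:**
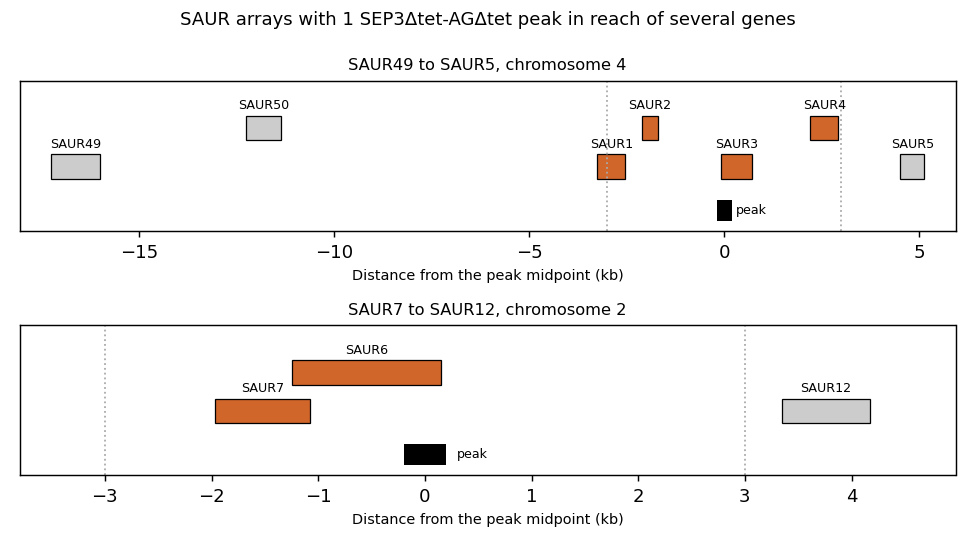
Layout of the pair of SAUR gene runs in which 1 SEP3Δtet-AGΔtet peak was counted for several genes, drawn as distance from the peak midpoint (x axis, kb). Boxes are genes (orange, in reach; grey, out of reach; height has no meaning), the black box is the 400 bp peak and dotted lines mark 3000 bp; 4 genes are in reach in the upper run and 2 in the lower.

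Because of these shared peaks, the 30 auxin genes with SEP3Δtet-AGΔtet rest on 26 peaks, while the 15 with SEP3Δtet3M-AG rest on 15. Sharing is not particular to SAUR genes. The 4308 other genes with SEP3Δtet-AGΔtet rest on 2149 peaks, and the 3290 with SEP3Δtet3M-AG on 1574. Of the 35 SAUR genes next to another auxin gene, 1 had a SEP3Δtet3M-AG peak (2.86%, interval 0.0723 to 14.9) and 9 a SEP3Δtet-AGΔtet peak (25.7%, interval 12.5 to 43.3). Of the 45 that stand alone, 6 (13.3%, interval 5.05 to 26.8) and 8 (17.8%, interval 8.002 to 32.05) did. The 12% and 15.8% of other genes lie within these intervals. Among 11 runs made of SAUR genes alone, 1 held a SEP3Δtet3M-AG peak and 4 a SEP3Δtet-AGΔtet peak, with no like count for runs of other genes. The runs with none in either list include SAUR26 to SAUR28 with SAUR73, SAUR14 to SAUR16, and SAUR63 to SAUR65. How well reads can be placed among similar neighbouring copies was not tested.

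Peaks at auxin genes lay mostly in the flanks. With SEP3Δtet3M-AG, 2 genes had a peak inside (PIN2 and IAA9; 1.43% of the 140, against 3.18% of other genes), 7 had the nearest within 1000 bp and 6 farther out. Inside or within 1000 bp, that is 6.43% of the auxin genes, against 6.61% of other genes. With SEP3Δtet-AGΔtet, 7 had one inside (among them IAA5, IAA9, IAA34, SAUR3, SAUR6 and SAUR8; 5% against 3.79% of other genes), 10 within 1000 bp and 13 farther out. The share inside or within 1000 bp was 12.1%, against 8.67% of other genes. Counting gene-peak pairs, 13.3% of those at auxin genes were inside with SEP3Δtet3M-AG (interval 1.66 to 40.5), against 25.0% at other genes. With SEP3Δtet-AGΔtet it was 23.3% (interval 9.93 to 42.3), against 22.4%. Another protein-coding gene was nearer in 8 of the 15 SEP3Δtet3M-AG pairs and 12 of the 30 SEP3Δtet-AGΔtet pairs. The auxin gene was the nearest in 46.7% of SEP3Δtet3M-AG pairs and 60% of SEP3Δtet-AGΔtet pairs, against 44.9% and 45.3% of pairs at other genes.

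Gene length and neighbours were compared within the larger families, since the families differ in both. SAUR genes with a peak in either list had a median length of 872 bp (19 genes) and those with none 812 bp (61 genes). For IAA genes it was 1390 bp (8 genes) and 1922 bp (24 genes). An auxin gene next door was present for 47.4% of the SAUR genes with a peak and 42.6% of those without. For IAA genes it was 0% of those with a peak and 29.2% of those without. These are descriptions, with no test. At the limit itself, the farthest genes counted with SEP3Δtet3M-AG were SAUR25 (2455 bp) and GH3.4 (2609 bp), and the first left out were IAA32 (3118 bp) and SAUR69 (3269 bp). With SEP3Δtet-AGΔtet the farthest counted were IAA15 (2593 bp) and GH3.4 (2816 bp), and the first left out IAA32 (3141 bp) and SAUR69 (3274 bp).

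The rest of the auxin pathway was described with a list of 54 further genes, by role. Of these, 8 had a SEP3Δtet3M-AG peak (14.8%, interval 6.62 to 27.1) and 14 a SEP3Δtet-AGΔtet peak (25.9%, interval 14.96 to 39.65), 7 of them in both lists. The background shares of 12% and 15.8% lie within these intervals. Auxin response factors had 3 and 6 of 19 members with a peak (intervals 3.38 to 39.6% and 12.6 to 56.55%, which also hold the background shares). ARF3 (ETT), which patterns the gynoecium, and ARF21 had one in both lists, ARF6, a regulator of stamen and petal growth, with SEP3Δtet3M-AG only, and ARF1, ARF4, ARF9 and ARF20 with SEP3Δtet-AGΔtet only. Of those 4, ARF1, ARF4 and ARF9 had a peak inside the gene.

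Of the 6 auxin receptors, AFB2 had a peak in both lists (2637 bp away with SEP3Δtet3M-AG and 2632 bp with SEP3Δtet-AGΔtet). TIR1 had one inside the gene with SEP3Δtet-AGΔtet (chromosome 3, 23275014 to 23275413), while the nearest SEP3Δtet3M-AG midpoint was 10910 bp away. Among transport genes, LAX2, PILS7 and ABCB4 had a peak in both lists, the ABCB4 peak being the one counted above for IAA20. The influx carrier AUX1 and the kinases PID, WAG1 and WAG2 had none in reach. TAR2, of the step before the YUC enzymes, had a pair of peaks with SEP3Δtet-AGΔtet only, the nearer 2700 bp away, and TAA1 and TAR1 had none. LBD33 had a peak in both lists and LBD18, an auxin-induced gene of lateral root formation, one inside the gene with SEP3Δtet-AGΔtet only. None of the 5 co-repressor genes TPL and TPR1 to TPR4 had one. Each of these roles holds at most 7 genes, so the intervals are wide, such as 0 to 52.2% for the co-repressors. For every role they hold the 12% and 15.8% of other genes.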

How the data were processed

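Peak positions came from the authors' deposited lists, 1 per complex, with chromosome, start and end in 3 columns and no score. Bowtie2, SAMtools and MACS2 were used, per the submitters' processing notes, which name no version here. The sources used here do not give settings, genome build, read numbers or pooling. The deposited starts count from 0 and are printed from 1.

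Genes, names and positions came from the RefSeq gene table of TAIR10.1, which has no strand, exons or sequence, so upstream and downstream were not separated, peaks were not placed in exons or introns, and the planned motif counts and promoter sequences were left out. Only peak coordinates are printed. Peaks of the complexes were called overlapping from 1 bp. Auxin genes with a peak are named, except 1 that is counted but not reported here, and coordinates are given for peaks inside or within 1000 bp. The 54 further pathway genes were matched by symbol or synonym, and all were found. Counts and exact intervals used Python 3.11.15 with pandas 2.3.3 and scipy 1.17.1, after a test on simulated peaks. No enrichment test was run. The members, lists and limits were chosen with earlier results of these data known. Alternatives were other flanks, any peak base, the nearest gene, primary symbols, tandem loci, merged peaks and stricter overlap.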

Additional observations from a re-analysis of the deposited data

How the results depend on the processing

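Of 25 alternative values, 17 stayed within 1.5 times the reported count or within the reported share's interval and 8 did not. With a flank of 1000 bp, 9 auxin genes had a SEP3Δtet3M-AG peak (6.43%, against 6.61% of other genes) and 17 a SEP3Δtet-AGΔtet peak (12.1%, against 8.67%). With 5000 bp the SEP3Δtet3M-AG count was 24 (17.1%, against 17.3%), and the SEP3Δtet-AGΔtet count was 44 (31.4%, against 22.5%). Counting a gene only where it is the nearest to the peak left 7 with SEP3Δtet3M-AG (5%, against 5.56%) and 18 with SEP3Δtet-AGΔtet (12.9%, against 7.45%). With primary symbols alone, 63 genes remained as members, of which 6 and 12 had a peak, against 15 and 30 of the 140. These lower counts come with the smaller set, and no share or interval was computed for them. The interval of the SEP3Δtet-AGΔtet share lay above the share of other genes at 5000 bp (23.85 to 39.8) and for the nearest gene (7.80 to 19.6), and held it in the other settings compared, 1000 bp, 3000 bp and any peak base. For SEP3Δtet3M-AG it held it in all 5. These counts move because each setting changes the length searched or the genes counted. No neighbouring SAUR pair shared a SEP3Δtet-AGΔtet peak at 1000 bp, a count of 0 against 4. With neighbouring auxin genes taken as 1 locus, 15 and 26 of 113 loci had a peak. Other genes were not merged into loci, so these counts have no like share beside them. The auxin genes with peaks in both lists numbered 10 with overlapping peaks required, 9 with midpoints within 100 bp and 8 with a flank of 1000 bp, against 11. A stricter peak threshold was not run, since the lists used carry no score. No paired analysis was possible because each complex has 1 sample. Peak depth is unknown, so a gene without a peak is one at which none was listed, not one shown to be unbound.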
